A study of Mus musculus with 15 samples.

Results

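C2C12 cells are mouse myoblasts, precursors of skeletal muscle that divide in growth medium and, once they leave the cell cycle, fuse into contractile myotubes. A pair of control lines from a study of MLX, a transcription factor that pairs with the glucose-responsive factors MondoA and ChREBP, was compared with each other: cells transduced with a lentiviral non-targeting shRNA (NT shRNA) and cells carrying a control vector that expresses only green fluorescent protein (GFP control, titled MCS in the labels). Neither carries an MLX construct, so the comparison shows how far the lines that serve as baselines differ before any change in MLX. Both controls had 3 libraries, 6 of the 15 in the series. The other 9 libraries came from C2C12 cells with lentiviral wild-type MLX (3 MLX-WT), an shRNA against Mlx (3 MLX shRNA) or MLX in dominant-negative form (3 MLX-DN).

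The labels give every library as C2C12 myoblasts and the vehicle of transduction as lentivirus, with an empty vector named beside the non-targeting shRNA. The hairpin sequence, the promoters of the vectors, the selection or cloning of transduced cells, the passage and the culture day are not given in the sources used here. Nor do they say whether the 3 libraries of a control are separate cultures. The p-values therefore rest on a spread between libraries that may be purely technical. The deposited table gives FPKM (fragments scaled by transcript length and library depth) on a log2 scale after adding 2. Depths estimated from the steps between low values were 39.5 to 56.2 M reads with NT shRNA and 38.5 to 82.5 M in the GFP control. In bulk RNA, fewer cells of a kind and less RNA per cell cannot be told apart.

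Myoblast differentiation is driven by the factors MYF5 and MYOD, which commit cells to the muscle lineage, and by myogenin, MRF4 (Myf6) and MEF2 proteins, which raise the genes of the contractile apparatus. That apparatus, the sarcomere, is built of myosin thick filaments, actin thin filaments with troponin and tropomyosin, and a frame of Z-disc, M-band and titin-associated proteins. A short hairpin RNA enters the cell's microRNA pathway, where Dicer cuts it and an Argonaute protein carries it to its target. A non-targeting hairpin is used so that a control shares this load with a knockdown line.

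The controls differed in most of the genes measured. A gene was tested if 3 or more of the 15 libraries had it at 1 FPKM or above. Of 11945 such genes limma called 8854 (74.1%) at a Benjamini-Hochberg adjusted p of 0.05, 4421 (37%) higher and 4433 (37.1%) lower with NT shRNA. Every later count of list members called higher or lower is to be read beside these shares. The 3 libraries of one control lay wholly above or below the 3 of the other for 9226 genes (77.2%). Differences are given as NT shRNA minus GFP control on the log2(FPKM + 2) scale, and stand in parentheses where no other quantity is named. Most differences were small: the median size was 0.18 on the log2 scale, the 90th percentile was 0.55, and the 95% confidence interval lay within 1.25-fold either way for 7302 genes (61.1%). At least 2-fold differences were called for 300 genes (2.51%), 165 higher and 135 lower with NT shRNA, and at least 4-fold differences for 23, 8 higher and 15 lower. Because 2 is added before the logarithm, differences of weakly expressed genes are understated, and with 0.1 added in its place 812 genes were called and at least 2-fold apart. Across genes, as a description, Pearson's r was 0.9987 to 0.9991 for libraries of the same control and 0.9736 to 0.9749 for libraries of different controls.

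**Figure D1:**
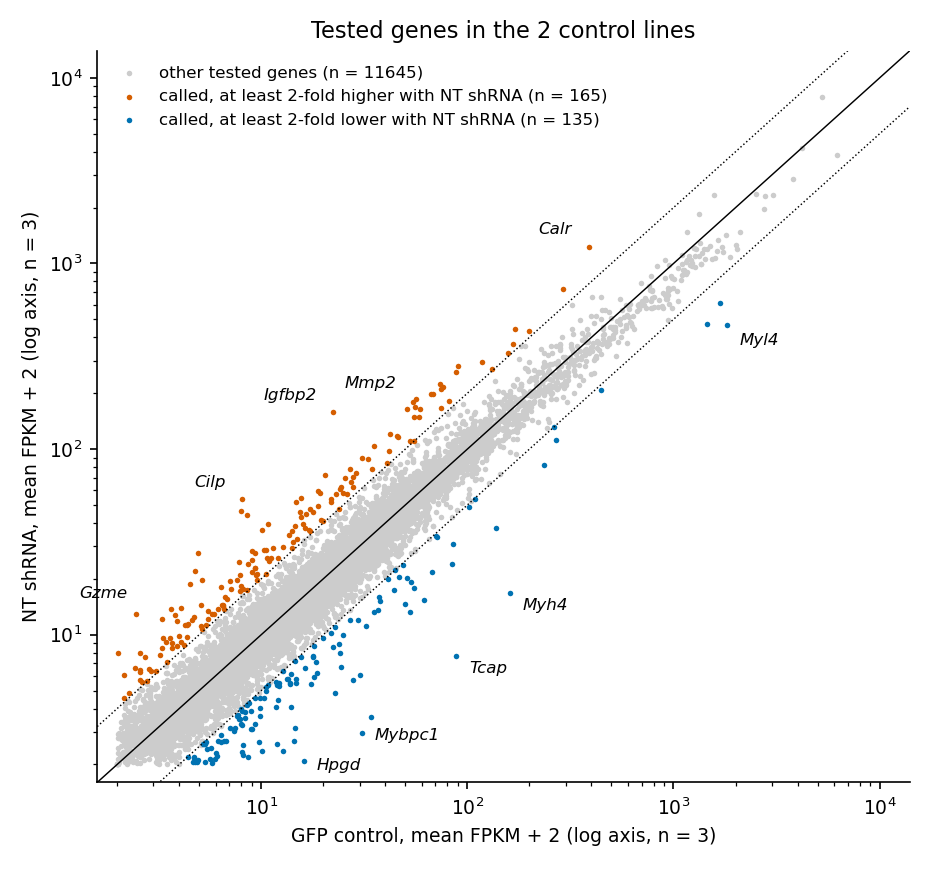
Mean FPKM + 2 of each tested gene in the GFP control (horizontal) and with NT shRNA (vertical), both on log axes, with 3 libraries in each mean. The solid line marks equal values and the dotted lines 2-fold differences, and the 165 genes at least 2-fold higher and 135 at least 2-fold lower with NT shRNA are coloured.

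Among the genes that rose most with NT shRNA, Igfbp2, a secreted binding protein for insulin-like growth factors, was at 152, 161 and 154 FPKM in the NT shRNA libraries and 19.9, 19.7 and 21.3 in the GFP control libraries. The ranges did not overlap, and the log2 difference was 2.82 (SE 0.0464, limma adjusted p = 1.05e-16), 7.67-fold on the mean FPKM. Cilp, a matrix protein first known from cartilage, stood at 51.2, 52.8 and 51.4 FPKM with NT shRNA against 5.88, 6.15 and 6.22, with a log2 difference of 2.74 (SE 0.0297, limma adjusted p = 2.28e-18). Fgf21, a hormone that muscle and liver release under stress, was at 45.7, 44.6 and 42.9 against 5.34, 6.42 and 6.15 FPKM, a log2 difference of 2.54. Every NT shRNA library was above every GFP control library for these 3 genes. Mfap5, a microfibril glycoprotein (20 ± 0.418 against 2.75 ± 0.142 FPKM, mean ± SD, n = 3), and Sod3, the extracellular superoxide dismutase (16.8 ± 0.829 against 2.49 ± 0.0621), followed at log2 differences of 2.21 and 2.07.

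Among the other large rises, Myl2, the slow and cardiac regulatory light chain of myosin, was at 26.1, 27.1 and 23.8 FPKM with NT shRNA and 2.9, 2.91 and 3.03 in the GFP control (log2 difference 2.48), against the direction of most other sarcomere genes. Krt80, a keratin, was at 42.2 ± 1.44 against 6.52 ± 0.418 FPKM. Fmo1, a flavin monooxygenase, and Cp, the copper-carrying ferroxidase ceruloplasmin, were 5.57-fold and 7.79-fold higher on the mean FPKM. Gzme, granzyme E, was at 10.5, 10.4 and 11.7 FPKM against 0.301, 0.594 and 0.477, and since its near-identical gene copies can share reads its value is uncertain. Gpc4, the cell-surface proteoglycan glypican 4, was nearly silent in the other control, at 6.31, 6.11 and 5.57 FPKM with NT shRNA and 0.0208, 0 and 0.0223 in the GFP control.

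The 12 largest falls were led by genes of the contractile apparatus. Tcap, which encodes telethonin, the cap of titin at the Z disc, was at 6, 5.83 and 5.14 FPKM with NT shRNA and 84, 90.3 and 85.2 in the GFP control, a log2 difference of -3.53 (SE 0.0565, limma adjusted p = 8.26e-17) and 15.3-fold on the mean FPKM. Mybpc1, slow myosin-binding protein C, stood at 0.972, 1.02 and 0.84 against 28.8, 28.5 and 28.7 FPKM (-3.38). Myh4, the fast type IIb myosin heavy chain, stood at 13.9, 15.4 and 15.1 against 159, 155 and 161 FPKM (-3.26). No NT shRNA library reached the lowest GFP control library for any of the 3. Abra, an actin-binding protein of striated muscle, was 7.34-fold lower on the mean FPKM, and Dhrs7c, a dehydrogenase of the sarcoplasmic reticulum, 20-fold lower.

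Other genes among these falls act outside the sarcomere. Hpgd, which breaks down prostaglandins, was at 0.0733, 0.0738 and 0.0828 FPKM with NT shRNA and 13.8, 14.1 and 14.3 in the GFP control. Crym, a thyroid hormone-binding crystallin, was at 0.359 ± 0.122 against 10.7 ± 0.125 FPKM, and Cd36, the fatty acid transporter, at 0.581 ± 0.0731 against 9.87 ± 0.235. Gja5 (connexin 40) was at 0.683 ± 0.136 against 12.4 ± 0.193 FPKM and the cadherin gene Cdh10 at 1.13 ± 0.0382 against 12.6 ± 0.0908. Tceal7 and the tetraspanin gene Tspan7 were both 6.93-fold lower on the mean FPKM. The rule that chose these rises and falls required that the libraries of the controls not overlap.

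**Figure D2:**
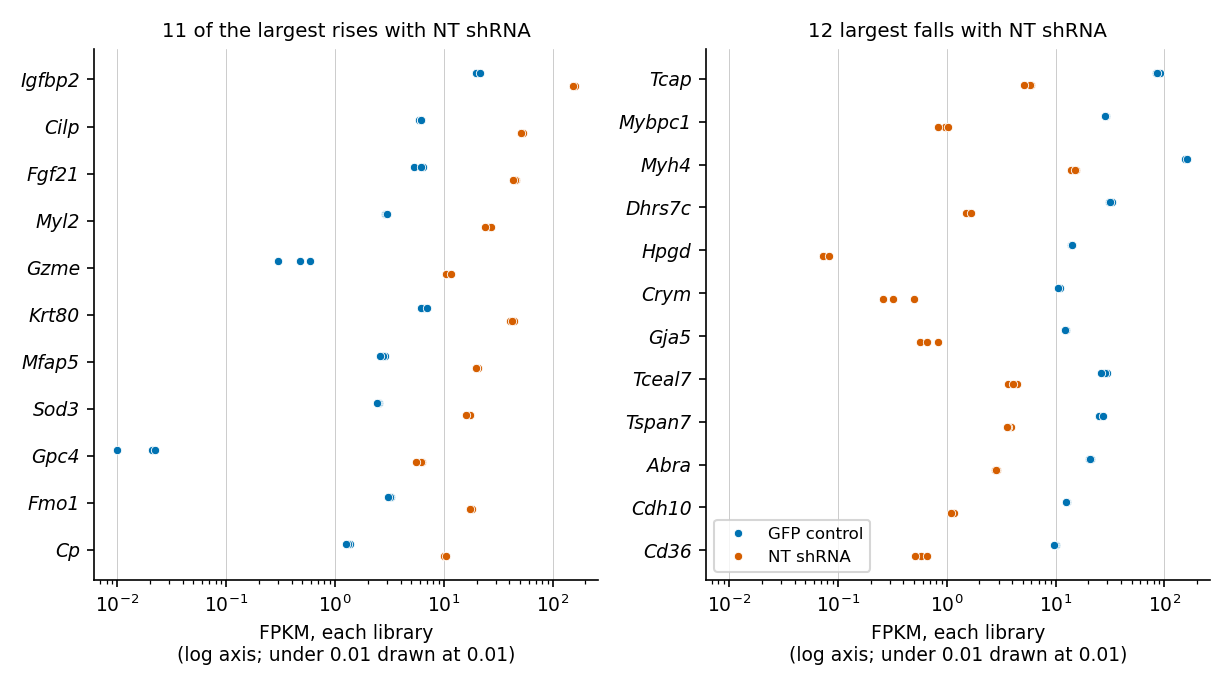
FPKM of 11 of the 12 largest rises (left) and 12 largest falls (right) with NT shRNA, 1 point for each of the 3 libraries of a control, on log axes, with values under 0.01 drawn at 0.01. Replicates lie close together beside the gap between the controls, as for Igfbp2 (152, 161 and 154 FPKM against 19.9, 19.7 and 21.3).

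Thick-filament genes were lower with NT shRNA across the myosin heavy chain family. All 9 tested myosin heavy chain genes fell, with a median log2 difference of -0.93 beside -0.00128 over all tested genes, of which 37.1% were called lower. Beside Myh4, the perinatal Myh8 was at 21.2, 23 and 22 FPKM with NT shRNA and 81.8, 81.4 and 82.9 in the GFP control (log2 difference -1.80), and the slow Myh7 at 19.6, 20.3 and 19.3 against 64.7, 65.3 and 66.4 (-1.63). The embryonic Myh3, whose level was the highest of the family, stood at 492 ± 14.1 against 940 ± 13.2 FPKM (-0.93), and the adult fast genes Myh1 and Myh2 differed least, at -0.32 and -0.17. Heavy chain genes are alike in sequence and lie side by side, so reads may be shared among them. The summed level of the list was 729 to 769 FPKM with NT shRNA and 1491 to 1533 in the GFP control.

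Genes of myosin light chains and their kinases moved in both directions. Of 7 tested, 4 fell and 3 rose. Myl4, the embryonic and atrial essential light chain, was at 466, 464 and 471 FPKM with NT shRNA and 1801, 1811 and 1808 in the GFP control (log2 difference -1.95, SE 0.0273, limma adjusted p = 2.98e-17). Myl1 (-0.80) and Mylpf (-0.70), the fast skeletal light chains, fell by less, and the kinase gene Mylk4 fell by 5.73-fold on the mean FPKM. Myl2 (2.48), Mylk2 (0.87), the skeletal muscle light chain kinase, and Mylk3 (0.41) were the 3 that rose. Mylk3 lies in a stretch of chromosome 8 in which nearly every gene was higher with NT shRNA, described further on, and without it 2 of 6 rose and 4 fell.

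Most thin-filament genes fell. Of 18 tested genes 15 fell and 2 rose, with a median of -0.40. Actc1, the cardiac actin that embryonic muscle also uses, was at 469, 478 and 454 FPKM with NT shRNA and 1441, 1457 and 1450 in the GFP control (-1.63), while Acta1, the adult skeletal actin, was at 2306 ± 49.4 against 2769 ± 41 (-0.26) and was not called with quantile normalization (-0.08). The troponin genes Tnnc2 (-1.46), Tnnt2 (-0.76), Tnni2 (-0.75) and Tnnt1 (-0.56) fell, as did the tropomyosin genes Tpm1 (-0.45), Tpm2 (-0.45) and Tpm3 (-0.34). Tnnc2 shares 84.6% of its exon bases with Ube2c on the opposite strand (GRCm38 annotation), a mitotic gene that reached 47.5 FPKM at most as a group mean, and strand use in the counting is not stated. Tmod1 (0.63) and Lmod2 (0.53), which cap and nucleate the actin filament, rose. Tmod1 shares 40.75% of its exon bases with Tstd2 on the opposite strand.

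The sarcomere frame was mixed. Of 25 tested Z-disc, M-band and titin-associated genes 14 fell and 6 rose, with a median of -0.11. After Tcap and Mybpc1, Actn2, the muscle alpha-actinin that cross-links actin at the Z disc, was at 12.7, 13.7 and 13.6 FPKM with NT shRNA and 58.1, 60.1 and 60.7 in the GFP control (-2.01). Myot (-1.54), Myoz1 (-1.30) and Ldb3 (-0.93) are Z-disc genes that also fell. Pdlim3 (0.88) and Myom2 (0.37) rose, and the titin gene Ttn was not called (0.02). Desmin (Des), the intermediate filament that marks muscle cells, stood at 1100 ± 33.5 against 1190 ± 9.92 FPKM (-0.11), a difference that quantile normalization turned to 0.15.

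Genes of excitation-contraction coupling and muscle energy supply moved in both directions. Of 27 tested 18 fell and 9 rose, beside 37.1% called lower and 37% called higher over all tested genes. Casq1, the calcium store of the sarcoplasmic reticulum, was at 46.8, 47.1 and 46 FPKM with NT shRNA and 97.8, 100 and 101 in the GFP control (-1.06), and the calcium pump gene Atp2a1 at 194, 205 and 200 against 321, 327 and 328 (-0.70). Pygm (-0.83) and Ckm (-0.63), the muscle glycogen phosphorylase and creatine kinase, fell as well. The 4 acetylcholine receptor genes of the list, Chrna1 (0.10), Chrng (0.26), Chrnd (0.33) and Chrnb1 (0.48), rose, together with the receptor kinase gene Musk (0.25) and the pump gene Atp2a2 (0.31). These receptor genes were set apart from the rest of the list after their values were seen. Chrna1 was not called once trends over GC content and length were removed (0.04). Ckm shares 16.45% of its exon bases with an opposite-strand transcript, A930016O22Rik.

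The regulators that precede these genes did not move together. Of 21 tested myogenic regulators 12 fell, 6 rose and 3 were not called. Mef2c, a MADS-box factor of sarcomere genes, was at 5.89, 5.8 and 6.22 FPKM with NT shRNA and 22, 21.6 and 22.3 in the GFP control, a log2 difference of -1.59 (SE 0.0344, limma adjusted p = 2.41e-15). Myf5 was at 3.64, 3.76 and 3.88 against 11.8, 11.5 and 11.2 FPKM (-1.23). Myf6, its neighbour on the chromosome, was at 0.101, 0.0145 and 0.0855 against 3.22, 2.8 and 2.57 (-1.23), and every NT shRNA library was below every GFP control library for both genes. In the other direction Myod1 was at 94.2, 95.2 and 94.9 FPKM with NT shRNA and 62.6, 60.7 and 59.9 in the GFP control (0.62), and Myog, which encodes myogenin, at 656 ± 9.19 against 445 ± 3.7 (0.56). Rbm24, an RNA-binding protein that promotes muscle splicing, rose by 0.85, and Pax7, the satellite cell factor, by 0.75, though its level was low (2.83 ± 0.173 against 0.872 ± 0.101 FPKM). Mef2a was not called, at -0.01, though it was with trends over GC content and length removed (-0.12).

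Most markers of the labelled cell type were clearly expressed in both lines. All 9 myoblast markers were tested, and 7 were higher and 2 lower with NT shRNA (1 lower with quantile normalization). The 2 lower ones were Myf5 (-1.23), the largest difference of the list, and Des (-0.11). Cdh15, M-cadherin, was at 178 ± 5.06 against 138 ± 2.36 FPKM and Itga7, the laminin-binding integrin of muscle, at 365 ± 10.3 against 279 ± 5.75. The summed level of the 9 myoblast markers was 2070 to 2161 FPKM with NT shRNA and 2000 to 2027 in the GFP control. Des made up the largest part of it, at medians of 1089 and 1190 FPKM. Genes of differentiation were abundant in both lines too, with Myog at medians of 658.5 and 444.5 FPKM and Myh3 at 490.1 and 934.3. The myoblast markers therefore do not show that the cells were undifferentiated. Of fibroblast markers 9 of 12 were tested, 4 higher and 4 lower, and their sum was 652 to 681 against 1074 to 1088 FPKM, with Col1a1 (-1.10) and Col1a2 (-0.74) lower and Dpt (1.45) and Dcn (0.77) higher. Thy1 was at 0.0174 ± 0.0218 and 0.0112 ± 0.0105 FPKM, under the level of 3 reads in a transcript of 2000 bases, and Tcf21 was listed at 0 in every library. None of 8 endothelial markers reached the test (summed level 0.204 to 0.270 against 0.483 to 0.614 FPKM), and the 9 macrophage and blood markers summed to 2.61 to 3.07 against 2.81 to 3.38 FPKM, with no call among the 3 tested. The part of other cell types in the results was not tested.

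Genes of protein folding in the endoplasmic reticulum rose together with NT shRNA. In this response, misfolded protein in the organelle releases the sensors IRE1, PERK and ATF6 from the chaperone BiP, and ATF6 and XBP1 then raise chaperone genes through an ER stress element in their promoters. Of 24 tested genes 21 rose and 1 fell, with a median log2 difference of 0.59, beside 37% of all tested genes called higher. The summed level of the list was 4232 to 4338 FPKM with NT shRNA and 2247 to 2289 in the GFP control. Calr and Herpud1 lie in the chromosome 8 stretch, and without them 19 of 22 rose with a median of 0.58.

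Hspa5, which encodes BiP, the main chaperone of the organelle, was at 594, 599 and 588 FPKM with NT shRNA and 323, 319 and 316 in the GFP control (log2 difference 0.89, SE 0.0189, limma adjusted p = 1.95e-15). Hyou1, a large chaperone that assists BiP, was at 94.6, 98.4 and 95.2 against 38.5, 39.7 and 40.6 FPKM (1.24). Hsp90b1, the HSP90 of the organelle, was at 657, 661 and 656 against 409, 396 and 395 (0.72). For these 3 genes every NT shRNA library lay above every GFP control library, and Hsp90b1 shares 14.7% of its exon bases with 1810014B01Rik on the opposite strand. The BiP co-chaperone gene Dnajb9 rose by 1.10, the disulfide isomerase genes Pdia4, Pdia3 and Pdia6 by 0.80, 0.59 and 0.56, and Creld2 and Manf, which encode secreted products of the response, by 0.87 and 0.74. Calr, the calcium-binding chaperone calreticulin, was at 1222, 1259 and 1197 FPKM against 388, 377 and 393 (1.66), and Herpud1, which serves the removal of misfolded proteins, at 113, 115 and 113 against 44.7, 43 and 44.7 (1.32). The sensor genes differed less: Atf6 rose by 0.69, Xbp1 by 0.15, and Ern1 (IRE1) and Eif2ak3 (PERK) were not called at -0.00 and 0.02. Edem1 was the only member called lower, at -0.25.

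The ER stress element was searched for as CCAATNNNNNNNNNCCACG, on both strands, in the 300 bases from 250 before to 50 after the start of each gene in RefSeq (build GRCm38.p6). It was in 39 of 32851 promoters (0.119%) and in those of 8 of the 20 list genes that the promoter table holds (Hspa5, Hsp90b1, Calr, Canx, Creld2, Dnajc3, Pdia6 and Syvn1), all 8 of which were called higher. A match on the opposite strand reads as the reverse complement. A match describes letters in the window and was not tested as a site. In this and the later promoter counts, the overall share is of promoters and the list count is of genes. The list was chosen as known genes of this response, and 21 of its 24 tested members rose. No conclusion is therefore drawn from the 8 matches. Of these promoters 3 are shown, because they belong to the most abundant genes of the list, with the outer letters of the element in capitals and 5′ to 3′ along the gene. They lie at chr2:34771840-34772139 on the plus strand, chr10:86705395-86705694 on the minus strand and chr8:84846882-84847181 on the minus strand, and the Hsp90b1 window holds the element 2 times.
Hspa5: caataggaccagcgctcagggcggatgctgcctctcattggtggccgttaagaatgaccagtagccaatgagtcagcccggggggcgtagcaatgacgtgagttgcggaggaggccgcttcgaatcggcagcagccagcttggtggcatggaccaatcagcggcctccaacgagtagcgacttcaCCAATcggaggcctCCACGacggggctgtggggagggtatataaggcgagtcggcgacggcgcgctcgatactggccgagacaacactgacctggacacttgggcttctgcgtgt
Hsp90b1: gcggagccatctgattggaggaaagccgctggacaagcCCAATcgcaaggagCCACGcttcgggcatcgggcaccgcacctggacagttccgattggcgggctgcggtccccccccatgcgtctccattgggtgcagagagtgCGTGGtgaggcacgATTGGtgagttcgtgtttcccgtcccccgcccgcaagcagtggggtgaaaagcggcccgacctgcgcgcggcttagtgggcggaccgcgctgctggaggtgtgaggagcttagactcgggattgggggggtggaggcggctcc
Calr: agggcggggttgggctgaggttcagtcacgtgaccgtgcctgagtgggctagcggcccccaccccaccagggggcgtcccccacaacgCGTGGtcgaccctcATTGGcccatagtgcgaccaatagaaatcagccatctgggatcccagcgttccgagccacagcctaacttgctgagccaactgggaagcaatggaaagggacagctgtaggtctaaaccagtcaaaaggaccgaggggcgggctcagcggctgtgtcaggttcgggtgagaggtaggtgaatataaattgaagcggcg

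Most genes of the amino acid response rose. This program runs through the kinases of eIF2alpha, whose action lets the factor ATF4 be translated, and ATF4 raises genes of amino acid synthesis and uptake through a composite C/EBP-ATF element. Of 28 tested genes 26 rose and 2 fell, with a median of 0.54, and the number that fell was 1 without NT shRNA replicate 2, without GFP control replicate 3 or with quantile normalization, and 0 with the filter at a mean FPKM of 5. Fgf21 led the list. Among synthesis enzymes, Psat1 of the serine pathway was at 112, 111 and 106 FPKM with NT shRNA and 59.9, 60 and 60.5 in the GFP control (0.85), and Psph of the same pathway rose by 1.21. Asns, asparagine synthetase, was at 67, 68.9 and 67.3 against 38.4, 37.1 and 37.6 FPKM (0.81), and the mitochondrial folate enzyme genes Aldh1l2, Mthfd2 and Shmt2 rose by 1.0, 0.83 and 0.61. All 3 NT shRNA libraries were above all 3 GFP control libraries for Psat1 and Asns.

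Transporters and factors of the same list followed with smaller differences. The amino acid transporter genes Slc6a9, Slc7a5, Slc7a1 and Slc3a2 rose by 0.91, 0.55, 0.55 and 0.53, while the cystine transporter gene Slc7a11 and the stress sensor gene Sesn2 were the 2 that fell (-0.12 and -0.40), and Slc7a11 is the gene lost in the first 3 of those settings. Atf4 itself, which is regulated in translation, was at 153 ± 0.838 against 138 ± 2.33 FPKM (0.15), Atf5 rose by 0.85 and Ddit3, which encodes CHOP, by 0.33. The stress hormone gene Gdf15 rose by 0.75 from a low level (1.86 ± 0.471 to 4.46 ± 0.439 FPKM). Fgf21 and Gdf15 are also in the list of secreted muscle growth factors and Stc2 is in the hypoxia list, so these lists are not independent. On the opposite strand Aldh1l2 shares 17.3% of its exon bases with D10Wsu102e, Psph 26.1% with Cct6a and Slc6a9 38.8% with Ccdc24.

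The letters TGATGNAA were found, on both strands, in 3.97% of all promoters in the table and in those of 9 of 24 list genes there (Asns, Fgf21, Atf3, Chac1, Nupr1, Pycr1, Slc7a11, Trib3 and Vldlr), of which Slc7a11 was lower and the other 8 higher with NT shRNA. This list too was chosen as known genes of its response, and 26 of its 28 tested members rose. No conclusion is therefore drawn from the 9 matches. Of these promoters, 2 are shown with the element in capitals, for a synthesis enzyme and for the hormone gene that led the list. The windows lie at chr6:7693160-7693459 and chr7:45615441-45615740, both on the minus strand, with the element 23 and 139 bases before the start.
Asns: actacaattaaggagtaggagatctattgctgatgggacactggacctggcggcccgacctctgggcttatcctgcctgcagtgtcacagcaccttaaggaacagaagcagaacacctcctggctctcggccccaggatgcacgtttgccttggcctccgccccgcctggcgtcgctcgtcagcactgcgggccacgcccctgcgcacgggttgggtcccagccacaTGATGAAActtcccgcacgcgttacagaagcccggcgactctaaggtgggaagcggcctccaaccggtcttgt
Fgf21: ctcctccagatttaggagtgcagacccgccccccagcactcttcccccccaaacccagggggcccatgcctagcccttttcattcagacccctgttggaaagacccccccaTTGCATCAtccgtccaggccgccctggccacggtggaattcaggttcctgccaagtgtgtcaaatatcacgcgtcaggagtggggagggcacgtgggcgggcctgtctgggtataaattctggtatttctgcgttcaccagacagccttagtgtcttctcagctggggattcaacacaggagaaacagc

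For the falls, the promoter of Myh4 is shown, since its difference was the largest of the myosin heavy chains. It lies at chr11:67237562-67237861 on the plus strand, and the capitals mark an E-box CAGCTG, which myogenic factors can bind, and TATTTATA, a form of the site that MEF2 proteins can bind. CAGCTG is in 16.3% and TATTTATA in 1.70% of all promoters in the table. Of the 9 myosin heavy chain genes 1 and 3 hold them, respectively, and of 14 thin-filament genes 6 and 0.
Myh4: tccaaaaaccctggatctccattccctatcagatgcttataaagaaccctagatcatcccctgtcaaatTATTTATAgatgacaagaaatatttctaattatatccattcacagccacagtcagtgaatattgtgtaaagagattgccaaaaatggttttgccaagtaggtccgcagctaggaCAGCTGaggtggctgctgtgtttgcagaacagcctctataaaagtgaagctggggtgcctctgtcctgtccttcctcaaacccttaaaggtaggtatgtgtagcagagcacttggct

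Most genes of the hypoxia response rose. Of 24 tested genes 19 rose and 2 fell, with a median of 0.37, and 11 rose among the genes left by a filter at a mean FPKM of 5. Bnip3, a mitophagy receptor, was at 58.3, 54.8 and 55.4 FPKM with NT shRNA and 23.8, 21.7 and 23.7 in the GFP control (1.22). Pdk1, which inhibits pyruvate dehydrogenase, was at 12, 11.6 and 11.6 against 5, 4.23 and 4.66 FPKM (1.05). Ndrg1 rose by 1.06, Car12, a carbonic anhydrase, by 0.98 and the angiogenic factor gene Vegfa by 0.62. Ddit4 (-0.62) and Bnip3l (-0.20) fell, and the oxygen sensor gene Egln1 was not called at -0.03.

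Glycolysis genes had no common direction. Of 24 tested genes 13 fell and 8 rose, and 8 fell with quantile normalization. Pfkp, the platelet form of phosphofructokinase, was at 40.4, 40.4 and 38.5 FPKM with NT shRNA and 17.5, 17.9 and 17 in the GFP control (1.10), while Pfkm, the muscle form, was at 138, 142 and 135 against 214, 222 and 215 (-0.64). Pgam2, the muscle phosphoglycerate mutase, stood at 28.1, 29.7 and 28.4 against 80.6, 84.3 and 83.7 (-1.47), and the lactate transporter gene Slc16a1 at 24.3, 24.3 and 24.3 against 12.3, 12.4 and 12.5 (0.87). Pfkp shares 17.4% of its exon bases with Pitrm1 on the opposite strand.

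Genes that charge transfer RNAs rose while ribosomal protein genes fell. Of 20 cytosolic aminoacyl-tRNA synthetase genes 17 rose and 1 fell (2 with trends over GC content and length removed), with a median of 0.23. Farsa, a subunit of the phenylalanine enzyme, was at 162, 170 and 154 FPKM with NT shRNA and 57.6, 57.3 and 54.9 in the GFP control (1.49). It lies in the chromosome 8 stretch, and its partner subunit gene Farsb, which does not, rose by 0.12. Iars (0.59), Wars (0.61), Lars (0.45) and Nars (0.44) rose most among the others, Kars fell (-0.18), and without Farsa the count was 16 of 19 with a median of 0.22.

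Of 81 tested cytosolic ribosomal protein genes 77 fell and 0 rose, with a median of -0.34, but with quantile normalization 48 fell and 10 rose. Rpl27a was at 178, 173 and 184 FPKM with NT shRNA and 306, 297 and 302 in the GFP control (-0.75), and Rpl8 at 1139, 1160 and 1153 against 1721, 1753 and 1731 (-0.59). The summed level was 46490 to 48060 FPKM with NT shRNA and 60440 to 61220 in the GFP control. Ribosomal protein genes have many processed pseudogenes, with which reads can be shared.

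Cell division genes fell with NT shRNA. Of 40 tested genes of mitosis and the spindle 39 fell and 0 rose, with a median of -0.35, and of 42 tested genes of DNA replication 31 fell and 4 rose (-0.27). Plk1, a kinase that drives entry into mitosis, was at 14.4, 14.7 and 14.9 FPKM with NT shRNA and 25.3, 25.3 and 25 in the GFP control (-0.71), and Pttg1, securin, at 11.2, 11.1 and 11.1 against 20.3, 20.6 and 20.7 (-0.78). The phosphatase gene Cdc25b (-0.79) and Kif20a (-0.66), a kinesin of cytokinesis, fell, and Kif20a shares 31.8% of its exon bases with Cdc23 on the opposite strand. Uhrf1, which maintains DNA methylation at replication, was at 11.1, 11.1 and 10.7 against 18.1, 18.6 and 18.8 FPKM (-0.66). Orc6 (1.44) and Gins3 (0.57) were among the 4 that rose, and both lie in the chromosome 8 stretch, without which 2 of 40 replication genes rose and 31 fell.

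Regulators of cell cycle entry did not follow as a group. Of 18 tested cyclin, CDK and inhibitor genes 11 fell and 5 rose. Ccnd3, the cyclin D of differentiating muscle, was at 135, 139 and 139 FPKM with NT shRNA and 247, 251 and 245 in the GFP control (-0.84), and shares 14.75% of its exon bases with Bysl on the opposite strand. E2f2 was at 37, 38.4 and 37.3 against 13.6, 14 and 14.1 FPKM (1.31). Rbl2, the pocket protein p130 of quiescent cells, rose by 0.86 and lies in the chromosome 8 stretch. Cdkn1a (p21), the inhibitor that rises when myoblasts leave the cell cycle, was not called, at 604 ± 6.61 against 616 ± 7.16 FPKM (-0.03), but was higher at 0.20 with quantile normalization.

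Subunit genes of oxidative phosphorylation mostly fell, by small amounts. Of 59 tested 40 fell and 8 rose (5 without NT shRNA replicate 1), with a median of -0.17. Ndufb9, a subunit of complex I, was at 309, 299 and 312 FPKM with NT shRNA and 416, 412 and 414 in the GFP control (-0.43), and Atp5c1, a subunit of the ATP synthase, at 147, 142 and 144 against 183, 174 and 179 (-0.30). None of the 59 reached 2-fold. In the other mitochondrial list, of the citric acid cycle and fatty acid oxidation, 16 of 34 tested genes fell, 6 rose and 12 were not called, with a median of -0.06. Its largest fall was that of Pdk4, a kinase that inhibits pyruvate dehydrogenase, from 15.8 ± 0.586 to 5.68 ± 0.402 FPKM (-1.21).

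**Figure D3:**
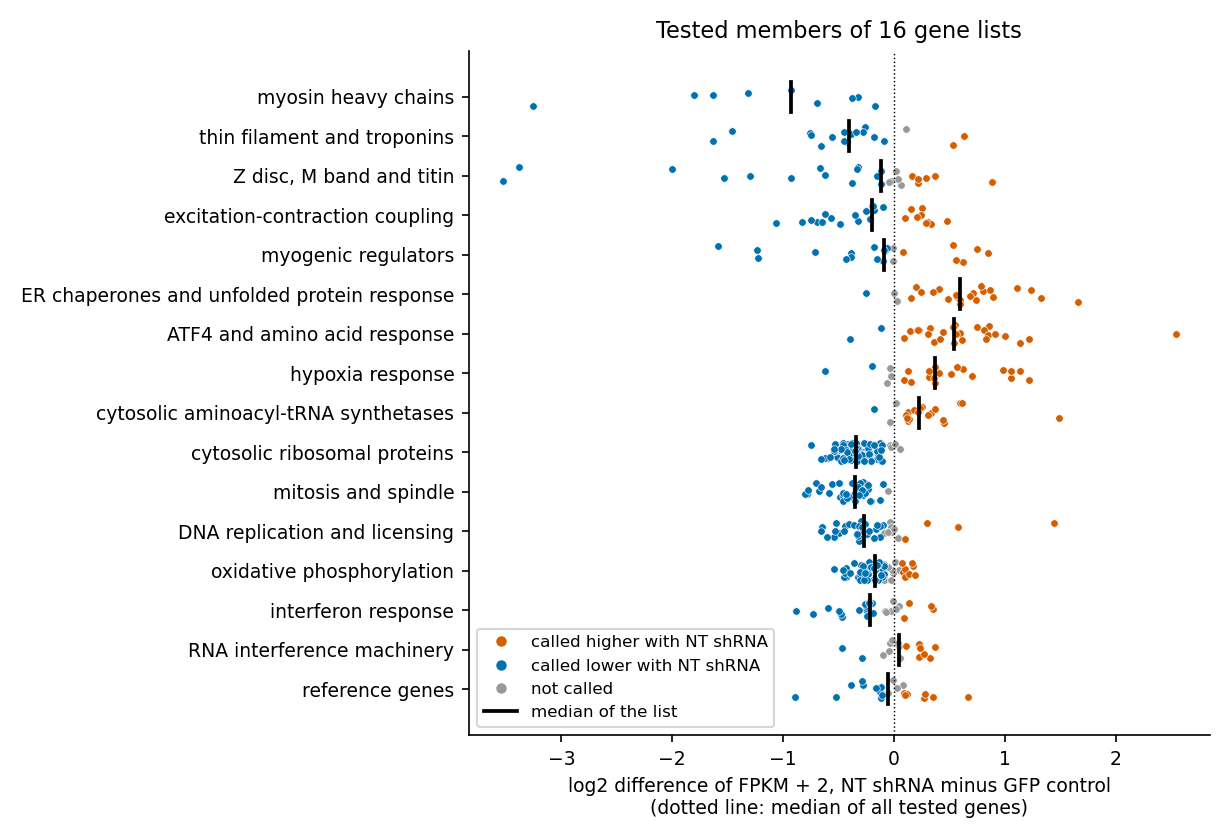
Log2 difference (NT shRNA minus GFP control, FPKM + 2) of each tested member of 16 gene lists, with called members coloured, list medians as black bars and the median of all tested genes as a dotted line. Myosin heavy chains lie wholly below 0, ER chaperones and the amino acid response mostly above it (medians 0.59 and 0.54), and ribosomal protein and mitosis genes below it (-0.34 and -0.35).

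Matrix genes moved in both directions, and the matrix classes were not tested against each other. Over all tested genes 37% were called higher and 37.1% lower, and the network collagen counts lie near these shares. Matricellular and elastic-fibre genes rose in 16 of 23 cases and fell in 7 (3 with the filter at a mean FPKM of 5), matrix proteases, inhibitors and cross-linkers rose in 15 of 25 and fell in 6, and network and basement membrane collagens fell in 10 of 19 and rose in 6. Of 8 tested small leucine-rich proteoglycan genes 4 rose (2 with that filter), 1 fell (0 with quantile normalization and 3 with trends over GC content and length removed) and 3 were not called. Without Mmp2 and Mmp15, which lie in the chromosome 8 stretch, 13 of 23 genes of the protease list rose and 6 fell. Postn, periostin, was at 161, 163 and 164 FPKM with NT shRNA and 48.9, 48.6 and 50 in the GFP control (log2 difference 1.69, SE 0.0243, limma adjusted p = 3.08e-17). Mmp2, a gelatinase, was at 175, 183 and 172 against 52.5, 53 and 51.9 FPKM (1.71). Both were higher in all 3 NT shRNA libraries than in any GFP control library.

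Several collagen genes fell. Col6a3, a chain of the microfibrillar collagen around muscle fibres, was at 34.9, 36.1 and 35.9 FPKM with NT shRNA and 134, 136 and 137 in the GFP control (-1.87), and Col1a1 at 203, 216 and 198 against 438, 448 and 442 (-1.10). Col8a1 (-1.41) and Col18a1 (-1.18) fell too. Col5a2 (0.48) and Col27a1 (0.66) rose among the fibrillar collagens, where 5 of 9 rose and 3 fell. The rises in this class were 3 where the filter was a mean FPKM of 5.

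Genes of growth factors and chemokines had no common direction. In the insulin-like growth factor system 7 of 16 tested genes rose (4 with the filter at a mean FPKM of 5) and 6 fell, beside 37% called higher and 37.1% called lower over all tested genes. After Igfbp2, the RNA-binding protein gene Igf2bp2 was at 9.61, 9.21 and 8.93 FPKM with NT shRNA and 2.28, 2.18 and 2.57 in the GFP control (1.37), while Igf2, the growth factor that differentiating myoblasts secrete, was at 125 ± 0.986 against 173 ± 1.78 (-0.47). H19, the noncoding RNA that lies beside Igf2, rose by 0.58. Of 42 tested secreted muscle growth factor genes 23 rose and 17 fell (10 and 10 with that filter). In this list Angptl4 was at 48.2, 51.5 and 50.2 against 19.2, 20.2 and 19.9 FPKM (1.26) and Angpt1, a ligand of the endothelial receptor Tie2, at 13.5, 12.7 and 13.2 against 35.7, 36 and 35.6 (-1.32). Of 19 tested chemokine and cytokine genes 6 rose (2 with that filter), 8 fell and 5 were not called. Il15 of the growth factor list and Cx3cl1 of the chemokine list rose and lie in the chromosome 8 stretch. Without them 22 of 41 growth factor genes rose and 17 fell, and 5 of 18 chemokine and cytokine genes rose and 8 fell. The chemokine genes Ccl2 (-1.20) and Ccl7 (-1.05) fell, and Cxcl12 rose (0.55).

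Imprinted genes fell more often than they rose, in 10 of 13 tested cases against 3 (5 fell with the filter at a mean FPKM of 5). Ndn, necdin, was at 0.122, 0.242 and 0.291 FPKM with NT shRNA and 3.95, 4.13 and 4.31 in the GFP control (-1.47), and Zim1 at 1.29, 1.3 and 1.37 against 6.12, 5.87 and 5.84 (-1.26). Peg3 (-0.71) and Peg10 (-0.92) fell too. The early response genes Egr3 (-1.53), Egr2 (-0.89) and Egr1 (-0.74) were lower in a list of 25 in which 12 rose and 10 fell. Of the 12, Junb and Ier2 lie in the chromosome 8 stretch, and without them 10 of 23 rose and 10 fell.

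Genes of the interferon response were more often lower than higher with NT shRNA. Double-stranded RNA can raise such genes, and an effect of the hairpin on them was not tested. Of 28 tested interferon response genes 17 fell and 4 rose, with a median of -0.22. Over all tested genes 37.1% were called lower and 37% higher. Of the few interferon genes left by the filter at a mean FPKM of 5, 3 fell and 1 rose. Irgm1, a GTPase of the response, was at 8.34, 9.13 and 9.13 FPKM with NT shRNA and 18.3, 17.4 and 18.6 in the GFP control (-0.89). The sensor genes Ddx58 (RIG-I) and Ifih1 (MDA5), which detect double-stranded RNA, were lower (-0.32 and -0.24). Their median levels were 2.10 and 0.351 FPKM with NT shRNA against 3.03 and 0.784 in the GFP control. At such levels the added 2 understates the difference. Most genes of the interferon list were weakly expressed, with a summed level of 88.4 to 89.7 FPKM with NT shRNA and 115.8 to 117.5 in the GFP control. Isg20 (0.33) and Ifit1 (0.35) were the largest of the 4 rises. Antigen presentation genes fell in 11 of 17 cases (7 with the filter at a mean FPKM of 5) and rose in 3, a number that was 0 without NT shRNA replicate 1.

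The machinery that handles short hairpins differed by small amounts on the log2(FPKM + 2) scale, from -0.47 to 0.37. The 0.37 belongs to a weakly expressed gene, whose difference in FPKM the added 2 understates. All 17 genes of the list were tested, of which 7 rose, 2 fell (5 with trends over GC content and length removed) and 8 were not called. The shares over all tested genes were 37% higher and 37.1% lower, so the rises are near the overall share. Drosha, the nuclease that starts microRNA processing, was at 18.1, 19.1 and 17.8 FPKM with NT shRNA and 25.6, 26.3 and 26.5 in the GFP control (-0.47). Its partner gene Dgcr8 rose by 0.33, the export factor gene Xpo5 by 0.23 and Dicer1 by 0.22. Ago2, the Argonaute that cuts its targets, was not called, at 22.4 ± 0.981 against 24.1 ± 0.73 FPKM (-0.10), but was called lower without NT shRNA replicate 3 (-0.12), in the 6 control libraries alone (-0.10) and with those trends removed (-0.14). Dgcr8 shares 19.1% of its exon bases with Trmt2a on the opposite strand.

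The largest concentration of rises lay on chromosome 8. Of the 165 genes at least 2-fold higher with NT shRNA 75 are on that chromosome, and each of the other chromosomes holds 10 or fewer. In the gene order of the GRCm38 annotation, medians of 11 neighbouring genes of mean FPKM of at least 5 exceeded 0.5 from Lsm6 to Cdh11, a limit chosen after seeing the values. Of 127 tested genes in this stretch 123 were higher, 1 was lower and 3 were not called, and 72 were at least 2-fold higher. Among the 109 with a mean FPKM of at least 5, the median log2 difference was 1.19 (quartiles 0.86 and 1.44) and the median ratio of mean FPKM was 2.57. The medians of 11 peaked at 1.50 around Man2b1, while elsewhere the highest was 0.54, on chromosome 1. The other tested genes of chromosome 8, which has 609 in all, had a median of -0.02.

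Libraries of the same control differed little over the stretch. The median ratio to the GFP control mean was 2.56, 2.60 and 2.56 in the 3 NT shRNA libraries, and 0.997, 0.998 and 1.01 in the 3 GFP control libraries. Each GFP control library is part of that mean, so its ratio is drawn towards 1 by the calculation. Set side by side against the same GFP control, MLX-WT stood at a median ratio of 1.67, MLX-DN at 2.29 and MLX shRNA at 2.49. The first gene of the stretch, Lsm6, was at 23, 22.8 and 23.1 FPKM with NT shRNA and 9.25, 8.42 and 9.22 in the GFP control (1.19). Smad1, a mediator of BMP signals, was at 26.5, 26.9 and 26.3 against 8.4, 8.79 and 8.37 FPKM (1.44), Junb at 174, 183 and 181 against 79.8, 78.3 and 80.5 (1.15) and the metallothionein gene Mt1 at 172, 163 and 164 against 52.5, 50.7 and 58 (1.60). Cdh11, a cadherin, was the 1 gene called lower, at 13, 12.6 and 12.2 against 47.8, 47.4 and 47.6 FPKM (-1.76). It is the last gene of the stretch, and the centred median of 11 there still covers the raised genes before it. The next genes in order, Cmtm3, Dync1li2 and Nae1, were at -0.10, 0.04 and 0.05, so Cdh11 may lie past the end of the raised run. Lsm6, Smad1 and Mt1 were picked after their values were seen.

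**Figure D4:**
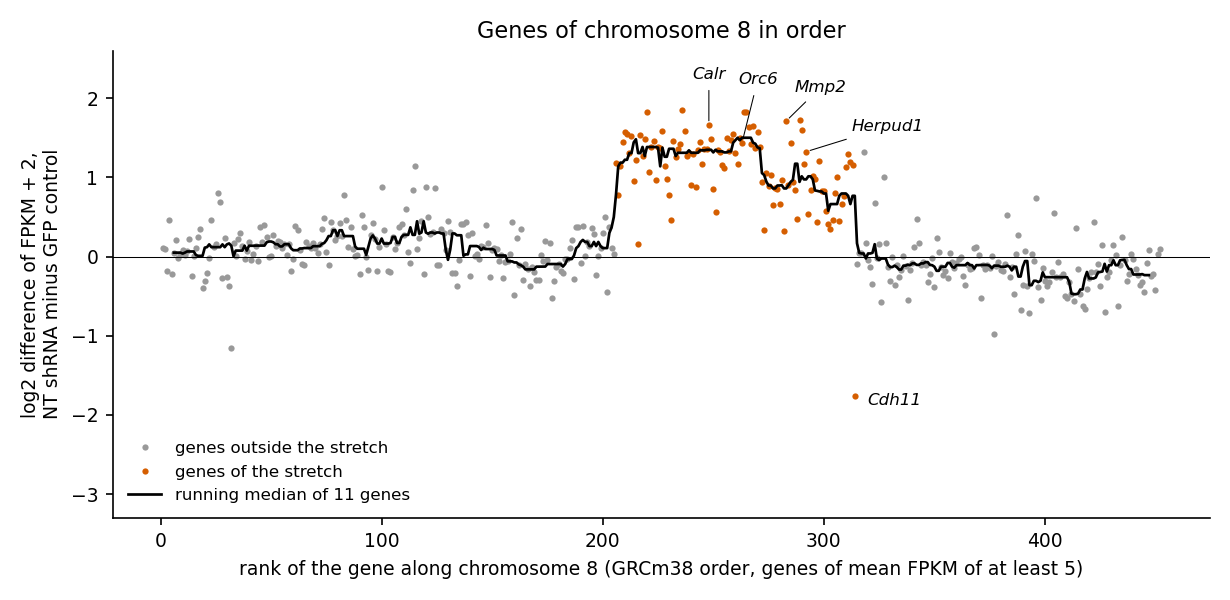
Log2 difference (NT shRNA minus GFP control, FPKM + 2) of genes of mean FPKM of at least 5 along chromosome 8, by rank in the GRCm38 gene order, with the running median of 11 genes as a line. The median steps up at Lsm6, peaks at 1.50, and drops after Cdh11.

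Outside the stretch 93 genes were at least 2-fold higher and 134 at least 2-fold lower, and 8730 of 11818 were called. The lowest median of 11 neighbouring genes anywhere was -0.65, on chromosome 15 around Myh9. Chromosome medians ran from -0.17 on chromosome 15 to 0.19 on chromosome 13. On chromosome 15, 62.8% of tested genes were called lower, and on chromosome 13, 67.9% were called higher.

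A few genes were expressed in 1 control and nearly silent in the other. With a mean FPKM under 0.1 in 1 control and of at least 2 in the other there were 8, of which Gpc4 was high with NT shRNA and 7 in the GFP control, among them Hpgd, Epha3, Lrrn3, Myf6, Prl2c3 and Prl2c4. These limits were set after values were seen. Epha3, an ephrin receptor, was at 0.0697, 0.0091 and 0.0447 FPKM with NT shRNA and 3.54, 4.1 and 3.73 in the GFP control, and Lrrn3 at 0.0722, 0.0675 and 0.056 against 3.28, 3.23 and 3.5. For a transcript of 2000 bases, 3 reads amount to 0.0182 to 0.0390 FPKM in these libraries, for counting error only, so several of the low values are near that floor. Prl2c3 and Prl2c4 are near-identical copies, and their values (2.69 ± 0.179 and 2.78 ± 0.147 FPKM in the GFP control) cannot be told apart.

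The other lines place these genes differently. Gpc4 was at 3.6 ± 0.398 FPKM in MLX-WT libraries, at 0.0302 ± 0.00645 in MLX shRNA and at 0.0263 ± 0.0128 in MLX-DN. Taken in the order MLX-WT, MLX shRNA and MLX-DN, Hpgd was at 2.27 ± 0.0455, 0.0279 ± 0.0312 and 0.0559 ± 0.0206 FPKM and Epha3 at 0.273 ± 0.0465, 0.0067 ± 0.00665 and 0.0105 ± 0.0123. In the same order the levels were 0.443 ± 0.0218, 0.281 ± 0.0867 and 28.1 ± 0.167 FPKM for Cilp, 6.27 ± 0.206, 0.561 ± 0.137 and 1.35 ± 0.194 for Mybpc1, and 75.5 ± 2.39, 26.7 ± 1.75 and 182 ± 5.93 for Myl2. In Hpgd, Epha3 and Mybpc1 the GFP control was the highest of the 5 groups, and MLX-WT came next. In Cilp, NT shRNA was the highest and both MLX-WT and MLX shRNA were below 1 FPKM.

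A comparison that shares no library with the controls is MLX-DN against MLX-WT, in which 33.2% of tested genes were called higher and 38.9% lower in MLX-DN. Of the 165 genes at least 2-fold higher with NT shRNA, 134 were higher and 21 lower in MLX-DN than in MLX-WT. Of the 135 at least 2-fold lower, 8 were higher and 117 lower. Without the chromosome 8 stretch the counts were 69 and 17 of 93, and 8 and 116 of 134. Over all called genes, 2593 of the 4421 higher with NT shRNA were higher and 734 lower in MLX-DN, and 569 of the 4433 lower with NT shRNA were higher and 2908 lower. Myh4, for one, was at 103 ± 1.69 FPKM in MLX-WT against 31.4 ± 0.229 in MLX-DN, and Hspa5 at 487 ± 6.21 against 738 ± 10.9. Over the genes of the stretch the median log2 difference between MLX-DN and MLX-WT was 0.38, with 106 of 127 called higher.

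Mlx itself differed by less than the test could call between the lines that serve as its baselines. Mlx was at 16.3, 17.1 and 17.9 FPKM with NT shRNA and 16.6, 17.6 and 17.1 in the GFP control, and the difference (-0.00, 95% confidence interval -0.13 to 0.12) was not called. Mlxip, which encodes the partner MondoA, was at 4.76 ± 0.261 against 4.08 ± 0.369 FPKM (0.15), and was not called without NT shRNA replicate 1 (0.12), GFP control replicate 1 (0.13) or GFP control replicate 2 (0.13). Of 16 tested genes of the network and its targets 9 rose and 3 fell. Mycl1, of the MYC family, was at 15.7, 15.9 and 15.6 against 5.05, 5.15 and 5.32 FPKM (1.31). Txnip, a glucose-induced target of MondoA and MLX, was at 38.6, 40.2 and 39.1 against 30.5, 29.1 and 31 FPKM (0.36) and shares 21.4% of its exon bases with Gm15441 on the opposite strand. Mlx shares 19.4% with Psmc3ip.

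Common normalizing genes were compared because they often serve as a scale for others. Of 21 genes used as references for expression 10 were lower, 7 higher (11 with quantile normalization) and 4 not called, beside 37.1% called lower and 37% called higher over all tested genes. Tfrc, the transferrin receptor, was at 52.1, 51.6 and 53.1 FPKM with NT shRNA and 101, 98.3 and 96.9 in the GFP control (-0.89, 95% confidence interval -0.96 to -0.82). Csnk2a2, which lies in the chromosome 8 stretch, was at 20.3, 21.3 and 21.2 against 12.6, 12.4 and 12.4 FPKM (0.66), and Pgk1 at 425, 412 and 411 against 323, 324 and 328 (0.35). Rpl13a (-0.53), Rps18 (-0.39), Polr2a (-0.29) and Ap3d1 (-0.17) were lower, and Tbp (0.28) and Hprt (0.27) higher. Tbp shares 17.4% of its exon bases with Pdcd2 on the opposite strand.

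Smaller differences in this set depended on the scaling. Gapdh was at -0.28, Actb at -0.11 and Rplp0 at -0.11, and with quantile normalization Actb and Rplp0 were called higher (0.18 and 0.22) and Gapdh was not called (0.0300, limma adjusted p = 0.188). Rplp0 was not called with trends over GC content and length removed (-0.03). Ppia (-0.05), Eef1a1 (-0.01) and Ipo8 (0.03) were not called, with 95% confidence intervals of -0.11 to 0.01, -0.05 to 0.04 and -0.03 to 0.08, but quantile normalization put Ppia at 0.35 and Eef1a1 at 0.35, both called. B2m rose by 0.09 and was no longer called without NT shRNA replicate 1 (limma adjusted p = 0.0903) or GFP control replicate 2 (0.0625), nor with trends over GC content and length removed (0.0746). Ywhaz (0.12), Sdha (0.10) and Gusb (-0.12) were called within 1.25-fold.

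**Figure D5:**
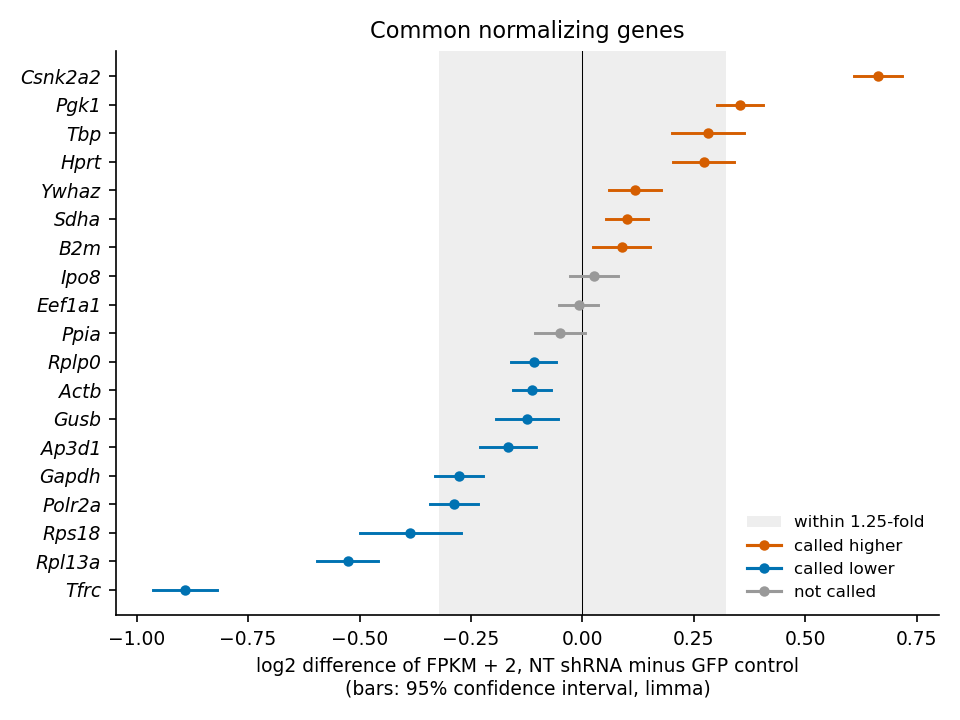
Log2 difference (NT shRNA minus GFP control, FPKM + 2) of 19 common normalizing genes with 95% confidence intervals from limma, and a shaded band for differences within 1.25-fold. Tfrc lies lowest at -0.89 and Csnk2a2 highest at 0.66, and the intervals of Ppia, Eef1a1 and Ipo8 include 0.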

How the data were processed

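Poly(A) RNA was sequenced from stranded libraries, per the labels' protocols, and the submitters' processing notes name CASAVA, TopHat2, STAR and the mouse build mm9 without roles or versions. The authors deposited log2 values, read here as log2(FPKM + 2) because the lowest value was exactly 1 in every library. Groups and replicate numbers came from the sample labels. FPKM was recovered by undoing the logarithm. Low FPKM values step by whole reads, from which depth was estimated, and 65.7 to 68.1% of them per control library lay within 0.05 of a whole read.

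The deposited log2 values were fitted with limma 3.58.1 in R 4.3.3, with 1 mean per group over the 15 libraries and a mean-variance trend, in two-sided tests adjusted over 11945 genes and called at 0.05. The fit was tested on simulated data. Genes are named if among the 12 largest rises or falls with no overlap and a mean of at least 2 FPKM in the higher control, or the 4 lowest p-values in a list, with other members of the lists described given by value. Members and lists were chosen with earlier results of these data known. Alternatives were the offset, filters, scalings, the 6 control libraries alone, a fit without the trend, the replicate block and each control library left out. Removal of GC and length trends and of the chromosome 8 stretch was added after seeing the data. Gene order came from the GRCm38 annotation, in which 93.6% of tested genes were placed, and promoters from RefSeq. Values of some genes are not reported here.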

Additional observations from a re-analysis of the deposited data

How the results depend on the processing

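Of 8854 genes called, leaving out 1 control library at a time left 8397 to 8528, with 4193 to 4247 higher and 4202 to 4281 lower, and 297 to 310 called and at least 2-fold apart. Of the genes higher with NT shRNA, 2487 to 2538 were then also higher in MLX-DN than in MLX-WT. With an offset of 0.1 the genes called and at least 2-fold apart numbered 812, since a smaller offset lets low values differ by more, and with an offset of 1 they numbered 444. Requiring a difference of at least 1 on the log2 scale beside the adjusted p left 300 by construction. Without a filter 4847 genes were higher and 5339 lower, and a mean FPKM of at least 5 left 3398 and 3081. Quantile normalization gave 4524 and 4357, and a fit with GC and length trends taken out 4072 and 4126. Scalings moved the median of all tested genes by under 0.01.

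Of 301 genes checked singly, 284 kept direction and call in each of the 16 settings that tested them, as a filter at a mean FPKM of 5 and the GC and length fit leave some untested. Quantile normalization turned the sign of 7, namely Actb (0.18), Gapdh (0.0300, not called), Rplp0 (0.22), Des (0.15), Cdkn1a (0.20), Ppia (0.35) and Eef1a1 (0.35), and the cause was not tested. Of the list counts 38 of 1734 values moved by over 1.5 times.

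No clear pairing by replicate number was seen. The deviations of same-numbered libraries from their group means correlated at r = 0.126, 0.0284 and 0.00963, and those of differently numbered libraries at -0.157 to 0.11. The 3 deviations of a control depend on each other, so these values cannot exclude pairing. With the replicate block 8861 genes were called, 4417 higher and 4444 lower, and 300 were at least 2-fold apart. Libraries of one control did not all correlate best with their own number.

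Low expression limits what can be read: for a transcript of 2000 bases, 3 reads lie at 0.0182 to 0.0390 FPKM.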

Other observations

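Further lists moved in both directions. Among 21 tested targets of SRF and YAP, factors that respond to actin and cell tension, 12 were lower and 9 higher with NT shRNA. Myl9, a smooth muscle light chain, was at 82.9, 80.9 and 77.8 FPKM with NT shRNA and 229, 235 and 232 in the GFP control (log2 difference -1.50), and the smooth muscle actin gene Actg2 at 108, 115 and 106 against 261, 269 and 270 (-1.26). Ctgf, a matricellular growth factor, went the other way, at 267, 275 and 265 against 129, 131 and 131 (1.03). Of 22 tested genes of fatty acid synthesis and storage 14 were lower and 5 higher (3 with the filter at a mean FPKM of 5), and of 23 tested genes of cholesterol synthesis and uptake 12 were lower, 6 higher and 5 not called. In the fatty acid list, with Cd36, Fabp5, a fatty acid binding protein, was lower (-1.06), as were the desaturase genes Fads2 (-0.77) and Fads1 (-0.57).

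Of 14 tested genes of Notch signalling, which holds back differentiation, 7 were higher and 4 lower. The receptor gene Notch1 (0.44), the ligand gene Dll1 (0.68) and the nuclear partner gene Rbpj (0.47) were higher. Notch3 (-0.14), Lfng (-0.48) and Rfng (-0.25) were lower, and the target gene Hes1 (0.0046), Notch2 (0.04) and Jag1 (0.04) were not called. Hes6, which opposes HES1, was lower at 68.1, 67.3 and 65 against 114, 115 and 115 FPKM (-0.76). Id1 was lower (-0.55) and Id2 higher (0.68), both inhibitors of the myogenic factors. Of 29 tested NRF2 and glutathione genes 9 were higher, 12 lower and 8 not called, with a median of -0.04. Among them, Fth1, the ferritin heavy chain, was at 591, 581 and 550 against 974, 995 and 974 FPKM (-0.77), while Gpx3, a secreted glutathione peroxidase, was at 31.1, 32.6 and 31.3 against 14.8, 15.3 and 15.6 (0.97).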
